A study of Homo sapiens with 8 samples.

Results

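LY2784544 and GRN163L, each given alone to HEL cells, were compared directly with each other, so that no control array entered the difference. The members are the 2 arrays of cells given LY2784544 and the 2 arrays of cells given GRN163L, 4 of the 8 arrays in the series, read over every probe set that the platform annotation ties to exactly 1 gene. HEL is an established human erythroleukaemia line. The tested arms held 0.5 µM LY2784544 for 48 h and 20 µM GRN163L for 48 h. The combination arm held both agents for 48 h, with doses that the labels do not restate, and the control arm held DMSO for 48 h. Every arm was run once in each of 2 separate experiments, so each group has 2 arrays, 1 per experiment. All arms share the same line, medium and harvest time. The doses of the agents differ, a single line and a single time were used, and the 4 groups hold no oligonucleotide without a telomerase target. A difference between the agents is therefore a difference at these doses. Nothing in the labels says how the experiments differed. In the main fit, p-values reflect only the spread within the 4 groups over these cultures. That spread includes any effect shared by the arrays of an experiment.

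LY2784544 is a small-molecule inhibitor of the kinase JAK2. In blood cells JAK2 relays signals from cytokine receptors by phosphorylating STAT transcription factors, which then switch on target genes such as feedback inhibitors and survival factors. HEL cells carry an activated JAK2, so the pathway runs without cytokine. GRN163L is a lipid-conjugated oligonucleotide that pairs with the template of the RNA component of telomerase, the enzyme that extends chromosome ends, and so blocks the enzyme rather than its gene. HEL cells have features of both the erythroid and the megakaryocyte lineage.

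Of 12570 genes tested, 132 (1.05%) differed between the single agents, and the larger group was lower with LY2784544. With LY2784544, 29 genes (0.231%) were higher and 103 (0.819%) lower than with GRN163L (limma, Benjamini-Hochberg adjusted p under 0.05). Values are log2 signals from RMA, a method that corrects, normalizes and summarises the probes of each array, and a difference of 1 on this scale is a doubling. The median size of the difference was 1.32 among the 29 higher genes (2.50-fold) and -1.27 among the 103 lower ones (2.41-fold). In both experiments the sign was the same for all 132, and their 4 arrays did not overlap between the agents. Over all tested genes, 17.6% lay wholly higher and 27.8% wholly lower, so that non-overlap with 2 arrays a group is common. At an unadjusted p under 0.05 stood 1865 genes, against 628 expected if none differed. The number of calls rests on few arrays. It was 0 without the GRN163L array of experiment 1, where 1587 genes kept an unadjusted p under 0.05, and 6 without that of experiment 2. Without the LY2784544 array of experiment 1 it was 55, without that of experiment 2 it was 66, and without either combination array it was 211. A fit that blocks on experiment called 441 genes (3.51%), 111 higher (0.883%) and 330 lower (2.63%), and all 132 were among them. Over all 19181 single-gene probe sets with no filter, 130 (0.678%) were called, 38 higher (0.198%) and 92 lower (0.480%).

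**Figure D1:**
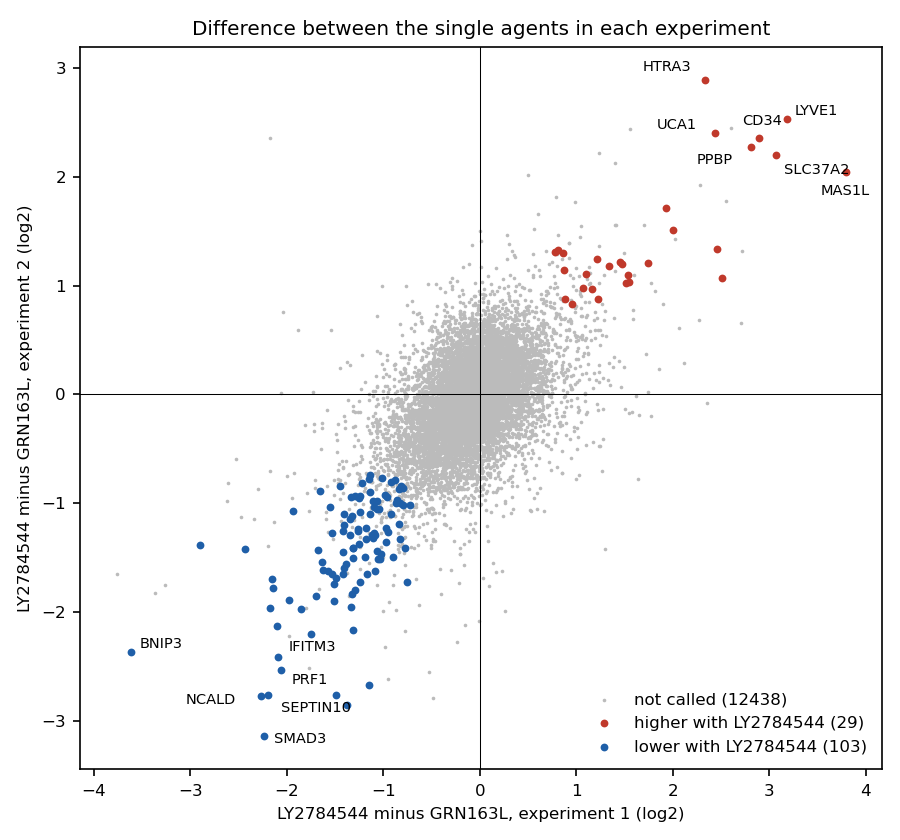
Difference between the LY2784544 and the GRN163L array (log2) of each tested gene in experiment 1 (horizontal) and experiment 2 (vertical). Red points are the 29 genes called higher with LY2784544, blue points the 103 called lower and grey points the 12438 not called. The called genes lie in the upper right and lower left, with the same sign in both experiments.

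All 12 of the 12 erythroid and megakaryocyte markers that a single-gene probe set measured were above the filter, among them GATA1 and ITGA2B. Of 9 measured markers of other blood cells, 3 were above it (LYZ, ELANE and NKG7). The tested genes had a median signal of 7.33 and 7.41 on the LY2784544 arrays, against 7.46 and 7.51 on the GRN163L arrays. The 332 olfactory receptor genes, dim probe sets used here as a gauge of background, had medians of 3.48 and 3.4 with LY2784544, against 3.32 and 3.29 with GRN163L. The LY2784544 arrays were thus slightly lower in the middle of the range and slightly higher at its floor, and the part of this in the results was not tested. Setting the arrays to one median moved the median difference of all genes by 0.12, to 0.08 from -0.04, and gave 52 higher and 69 lower genes. Quantile normalization of the tested genes gave 48 higher and 78 lower. The excess of lower genes was smaller on both scales. One median for all arrays adds the same 0.12 to the median of every gene list below, and so leaves each list where it was against all genes.

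MAS1L, LYVE1 and SLC37A2 had the largest differences upward with LY2784544, followed by CD34, HTRA3, PPBP and UCA1. In RNA of whole cultures, fewer cells expressing a gene and less RNA per cell cannot be told apart. MAS1L, a G protein-coupled receptor gene, had signals of 7.90 and 6.38 with LY2784544, against 4.11 and 4.34 with GRN163L. Both LY2784544 arrays were far above both GRN163L arrays, although they lay apart from each other. The difference was 2.92 ± 0.40 (log2, SE, n = 2 each, limma adjusted p = 0.0163), or 7.54-fold, and 2 further probe sets of the gene carry identical values. LYVE1, a hyaluronan receptor best known from lymphatic endothelium, stood at 7.33 and 7.57 with LY2784544, against 4.15 and 5.04 with GRN163L. One of its GRN163L arrays was under the filter level of 4.37, and the difference was 2.86 ± 0.30 (adjusted p = 0.00711). CD34, a sialomucin of blood stem and progenitor cells and of endothelium, stood at 8.64 and 8.79 with LY2784544, against 5.75 and 6.43 with GRN163L. Its groups were well apart, with a difference of 2.63 ± 0.30 (6.17-fold, adjusted p = 0.00993). The CD34 controls, 7.41 and 7.13, lay between the agents. Control lay between the means in 19 of the 29 higher and 68 of the 103 lower genes. Both means were at least 0.5 from it on opposite sides in only 2 and 12. The GRN163L mean lay within 0.5 of control in 23 of the 29 and 81 of the 103, the LY2784544 mean in 3 and 6.

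SLC37A2, a sugar phosphate transporter, had 9.40 and 8.76 with LY2784544, against 6.33 and 6.56 with GRN163L. The difference was 2.64 ± 0.27 (adjusted p = 0.00638). HTRA3, a secreted serine protease, had 7.24 and 7.51 with LY2784544, against 4.91 and 4.62 with GRN163L, a difference of 2.61 ± 0.20 (adjusted p = 0.00298). UCA1, a long non-coding RNA, had the smallest p of all genes. It stood at 6.57 and 6.77 with LY2784544, against 4.13 and 4.37 with GRN163L, and the arrays of each group were close together. The difference was 2.42 ± 0.16 (5.35-fold, adjusted p = 0.00201). JUP, which encodes plakoglobin, a linker of cadherins to the cytoskeleton, had 11.17 and 10.59 with LY2784544, against 9.24 and 8.88 with GRN163L. JUP was thus a bright gene in both arms and still differed by 1.82 ± 0.23 (adjusted p = 0.0131). C2orf66, the growth factor gene PDGFD (difference 1.79) and CDC42EP1, an effector of the GTPase CDC42 (1.76), were also among the 12 largest. PDGFD was not called without the filter on dim genes (limma adjusted p = 0.058) or with that filter at the 50th percentile (0.0651). It was also not called in a fit on the 4 single-agent arrays only (0.0521). The GRN163L mean was below 6 for 16 of the 29 higher genes, against 27.2% of all tested genes, so many of these genes were dim in that arm.

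The largest difference of all was downward with LY2784544. BNIP3, which encodes a mitochondrial protein that acts in mitophagy and is a classic target of hypoxia-inducible factors, had 7.77 and 8.64 with LY2784544, against 11.38 and 11.01 with GRN163L. The groups were far apart in both experiments, by 3.61 in the first and 2.37 in the second, and the difference was -2.99 ± 0.39 (7.94-fold, adjusted p = 0.0134). SMAD3, a transcription factor of the TGF-beta pathway, had 5.87 and 4.71 with LY2784544, against 8.11 and 7.85 with GRN163L. The difference was -2.69 ± 0.34 (adjusted p = 0.0131). SEPTIN10, a filament-forming GTPase, had 4.09 and 3.42 with LY2784544, against 6.28 and 6.18 with GRN163L. Its LY2784544 signals were under the filter level, and the difference was -2.48 ± 0.22 (adjusted p = 0.00389).

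PRF1, which encodes perforin, the pore-forming protein of cytotoxic lymphocytes, had 4.99 and 4.72 with LY2784544, against 7.05 and 7.25 with GRN163L. The difference was -2.30 ± 0.26 (adjusted p = 0.0094). IFITM3, an interferon-induced membrane protein that restricts virus entry, had 5.86 and 5.18 with LY2784544, against 7.95 and 7.59 with GRN163L. The difference was -2.25 ± 0.37 (adjusted p = 0.0300), and the call was lost under quantile normalization (adjusted p = 0.0509). ADA, adenosine deaminase of purine breakdown, had 5.64 and 5.72 with LY2784544, against 7.74 and 7.85 with GRN163L. BIN1, a membrane-bending adaptor, had 7.30 and 7.29 with LY2784544, against 9.47 and 9.25 with GRN163L. Replicate arrays of both genes nearly coincided, with differences of -2.12 ± 0.24 for ADA (adjusted p = 0.0094) and -2.07 ± 0.17 for BIN1 (adjusted p = 0.00389). The calcium sensor NCALD (-2.52), the lipid droplet protein PNPLA3 (-2.14), the heparan sulphate proteoglycan SDC2 (-2.13), the protease BACE2 (-2.12) and the desmosome protein PKP2 (-1.98) completed the 12 largest. Plakoglobin and PKP2, both proteins of desmosomes, thus differed in opposite directions. The LY2784544 mean was below 6 for 60 of the 103 lower genes, against 28.7% of all tested genes.

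**Figure D2:**
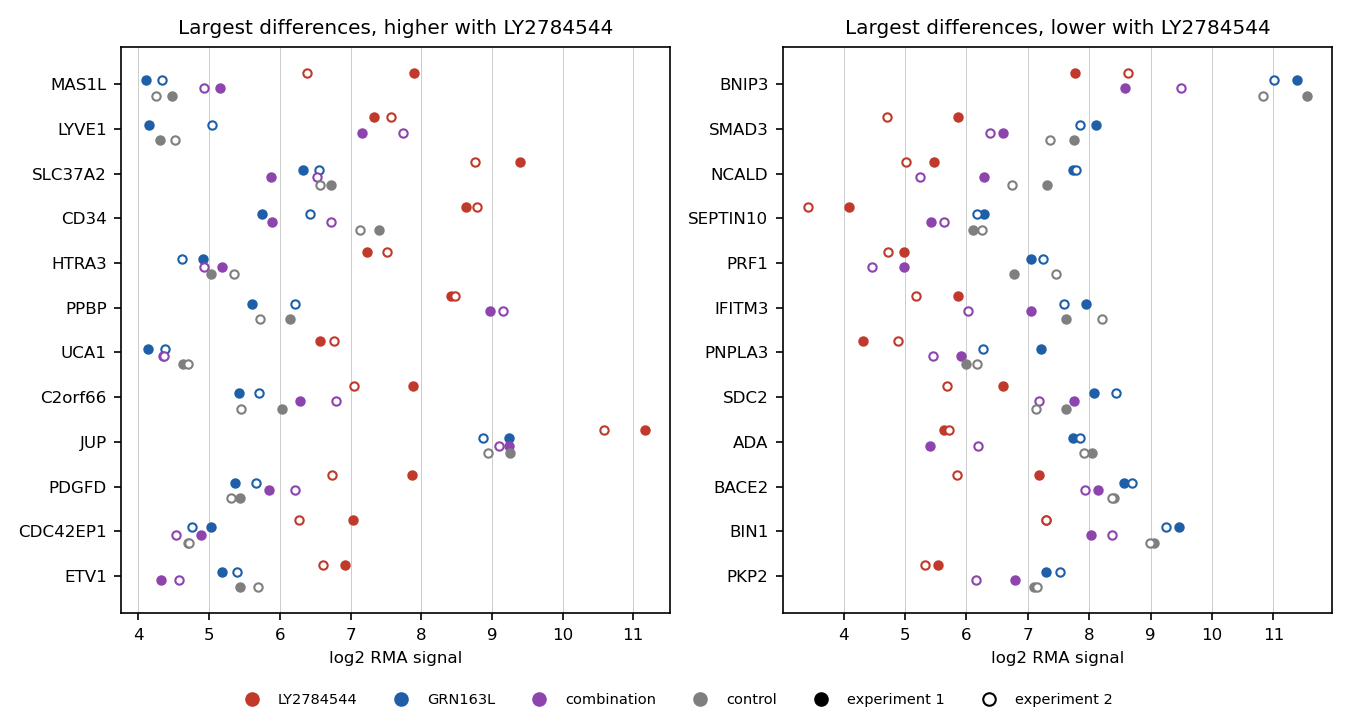
Log2 RMA signal on every array for the 12 genes with the largest difference in each direction, higher with LY2784544 on the left and lower on the right. Red is LY2784544, blue GRN163L, purple the combination and grey control; filled points are experiment 1 and open points experiment 2. In all 24 genes both red points lie on the same side of both blue points.

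Genes of the hypoxia response and glycolysis were lower with LY2784544 than with GRN163L in 27 of 31 tested by their means, and 4 of the 31 passed the test, all 4 lower. Over all 12570 tested genes, 6914 had lower means and 5615 higher ones, and 103 (0.819%) were called lower and 29 (0.231%) higher. These shares are the background for the same counts in every list below. The median difference over the list was -0.44, against -0.04 over all tested genes. It was larger in experiment 1 (-0.74) than in experiment 2 (-0.15), and was -0.27 without the LY2784544 array of experiment 1. Hypoxia-inducible factors bind DNA at a short core, of which ACGTG is one form, and raise genes of glycolysis, collagen hydroxylation and mitophagy. Only ACGTG was counted here, so a window without it may hold another form of the core. Besides BNIP3, the called members were ERO1A, an oxidase that forms disulphide bonds in the endoplasmic reticulum, P4HA1, a subunit of collagen prolyl hydroxylase, and ADM, the vasodilator peptide adrenomedullin. The promoters of these 4 genes are shown because they were the called members of the list. Each is the 250 bases before the gene's start on the gene's strand, from RefSeq (GRCh38.p14), at chr10:131981924-131982173 (minus strand) for BNIP3, chr14:52695559-52695808 (minus) for ERO1A, chr10:73096867-73097116 (minus) for P4HA1 and chr11:10304823-10305072 (plus) for ADM. Capitals mark ACGTG on either strand.
BNIP3: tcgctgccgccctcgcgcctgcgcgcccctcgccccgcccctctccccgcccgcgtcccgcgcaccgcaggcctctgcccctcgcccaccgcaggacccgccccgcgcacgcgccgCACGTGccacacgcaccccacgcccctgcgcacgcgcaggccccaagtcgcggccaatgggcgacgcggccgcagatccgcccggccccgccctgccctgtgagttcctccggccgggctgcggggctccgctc
ERO1A: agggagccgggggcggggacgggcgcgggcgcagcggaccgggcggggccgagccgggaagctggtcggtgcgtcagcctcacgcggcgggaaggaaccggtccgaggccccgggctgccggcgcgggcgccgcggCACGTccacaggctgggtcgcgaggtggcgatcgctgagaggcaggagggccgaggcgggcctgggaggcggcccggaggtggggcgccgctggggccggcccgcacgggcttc
P4HA1: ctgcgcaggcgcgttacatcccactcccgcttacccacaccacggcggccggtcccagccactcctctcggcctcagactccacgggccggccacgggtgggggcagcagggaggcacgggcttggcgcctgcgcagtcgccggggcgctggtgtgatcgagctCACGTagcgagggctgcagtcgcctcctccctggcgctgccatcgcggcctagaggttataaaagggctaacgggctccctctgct
ADM: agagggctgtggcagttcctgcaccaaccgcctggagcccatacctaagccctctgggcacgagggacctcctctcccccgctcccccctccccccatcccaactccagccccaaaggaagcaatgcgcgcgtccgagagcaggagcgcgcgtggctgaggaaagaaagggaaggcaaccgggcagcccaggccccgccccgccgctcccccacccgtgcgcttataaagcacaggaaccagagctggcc

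The letters stood 2 times in the BNIP3 window, on opposite strands of one palindrome with starts at -134 and -133, once at -114 in ERO1A, once at -86 in P4HA1 and nowhere in the ADM window. Of the 97 called genes with a promoter in the table, 18 of 73 lower ones (24.7%) and 3 of 24 higher ones (12.5%) held the motif. It was in 22.9% of the 9969 windows of tested genes and in 18.7% of all 27305, so the lower genes were near the background.

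ERO1A had 6.04 and 6.52 with LY2784544, against 8.18 and 8.30 with GRN163L. Its GRN163L arrays were close together and the groups were well apart, with a difference of -1.96 ± 0.23 (adjusted p = 0.0103). P4HA1 had 7.2 and 7.7 with LY2784544, against 9.63 and 9.12 with GRN163L, a difference of -1.93 ± 0.34 (adjusted p = 0.0375). Its call was lost without the filter (limma adjusted p = 0.0536) and with the filter at the 50th percentile (0.0551). ADM, a dimmer gene, had 5.05 and 5.28 with LY2784544, against 6.27 and 6.09 with GRN163L, a difference of -1.02 ± 0.16 (adjusted p = 0.0258). The glycolytic aldolase ALDOC had 8.64 and 9.67 with LY2784544, against 11.26 and 10.65 with GRN163L. Its difference of -1.80 ± 0.37 did not pass (adjusted p = 0.0603) but did with the block (0.0367). P4HA2, the paralogue of P4HA1, differed by -1.02 (0.0603, and 0.0365 with the block), and NDRG1, a stress-responsive gene, by -1.05 (0.0906, and 0.0281 with the block). PFKFB4, which makes an activator of glycolysis, differed by -1.80 (adjusted p = 0.103). EPAS1, which encodes one of the hypoxia-inducible factors and is named after its values were seen, had 4.65 and 4.33 with LY2784544, against 5.40 and 6.05 with GRN163L. It was called lower, by -1.24 ± 0.22 (adjusted p = 0.0438), at LY2784544 signals close to the filter level. Against the shared controls, the hypoxia list had a median of -0.67 with LY2784544 and -0.25 with GRN163L.

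Cholesterol synthesis genes, the enzymes from acetyl-CoA to sterol and their transport, had the lowest list median. It was -0.71 over 17 tested genes, with 16 lower means, and -1.04 in experiment 1 against -0.31 in experiment 2. Without the LY2784544 array of experiment 1 it was -0.34. No member passed the test, although 10 had an unadjusted p under 0.05 in limma. Over all tested genes 1865 of 12570 had one, and this share is the background for each such count in the lists below. STARD4, a sterol carrier, had 6.71 and 7.63 with LY2784544, against 8.50 and 8.54 with GRN163L. Its difference was -1.35 ± 0.31 (adjusted p = 0.0847). IDI1, which isomerises the isoprenoid building block, had 9.48 and 9.95 with LY2784544, against 10.52 and 10.70 with GRN163L, a difference of -0.90 ± 0.22 (adjusted p = 0.100). With the block, STARD4 (adjusted p = 0.0226), IDI1 (0.0187) and the desaturase SC5D (0.0344) were called. In fatty acid synthesis, 0 of 10 members were called, 2 had an unadjusted p under 0.05, and ACSS2, which makes acetyl-CoA from acetate, had -1.24 ± 0.24 (adjusted p = 0.0546, and 0.0300 with the block).

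No JAK-STAT target passed the test between the agents. Of 17 tested, 0 were called with or without the block (limma, 1 at an unadjusted p under 0.05), 14 had lower means with LY2784544, against 6914 of all 12570 genes, and the median was -0.15. That median was -0.03 with one median for all arrays and -0.19 with quantile normalization. PIM1, a survival kinase and direct STAT target, had 11.39 and 11.31 with LY2784544, against 11.86 and 11.67 with GRN163L. Its groups did not overlap, but the difference of -0.42 ± 0.16 did not pass (adjusted p = 0.268). The survival gene BCL2L1 differed by -0.32 (adjusted p = 0.361), ID1 by -0.50 (0.371) and CCND2, a cyclin, by -0.49 (0.461). SOCS3, the feedback inhibitor of JAK kinases, is named after its values were seen and had 7.35 and 7.10 with LY2784544, against 7.02 and 6.85 with GRN163L (difference 0.29 ± 0.18, adjusted p = 0.500). Both arms were lower than the SOCS3 controls, 8.29 and 8.41. Set against the same controls, the JAK-STAT targets had a median of -0.42 with LY2784544 and -0.20 with GRN163L.

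The targets of the drugs were not called. JAK2 had 10.46 and 10.52 with LY2784544, against 10.71 and 10.72 with GRN163L (difference -0.23 ± 0.23, adjusted p = 0.704). TERT, the catalytic subunit of telomerase, was near the filter level at 4.65 and 5.06 with LY2784544, against 4.87 and 4.40 with GRN163L. Its arrays overlapped, and the difference was 0.22 ± 0.21 (adjusted p = 0.680). TERC, the RNA that GRN163L pairs with, had 9.78 and 9.36 with LY2784544, against 8.94 and 8.57 with GRN163L. All its LY2784544 signals were above the GRN163L ones, yet 0.82 ± 0.24 did not pass (adjusted p = 0.157). Of 18 telomerase and telomere genes, 0 were called and the list median was 0.02. An unadjusted p under 0.05 in limma was found for 3 of them, near the share over all tested genes (1865 of 12570). STN1, a member of the complex that helps to copy the telomere end, had -0.77 ± 0.17 (adjusted p = 0.0691, and 0.0401 with the block).

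Among JAK kinases, STATs and cytokine receptors, 11 of 14 had lower means, the median was -0.32, 0 were called and 3 had an unadjusted p under 0.05. STAT4 differed by -0.89 (adjusted p = 0.149, and 0.0395 with the block) and CSF2RB, the shared beta chain of the IL-3 and GM-CSF receptors, by 0.61 (0.178). Of 22 interferon-stimulated genes, 19 had lower means, with a median of -0.32 and similar values in both experiments (-0.35 and -0.33). Its size depended on the treatment of dim genes and on scaling: the median was -0.15 with no filter, -0.61 with the filter at the 50th percentile and -0.21 with one median for all arrays. IFITM3 was the only one of them called. IFITM1, its neighbour and family member, had 10.27 and 9.85 with LY2784544, against 11.12 and 10.91 with GRN163L. The difference of -0.96 ± 0.18 lay just outside the threshold (adjusted p = 0.0518, and 0.0236 with the block). Of 19 genes of NF-kB and inflammation, 1 was called, BCL3, a coactivator that binds NF-kB on DNA. It had 6.54 and 6.34 with LY2784544, against 7.72 and 7.57 with GRN163L, a difference of -1.21 ± 0.16 (adjusted p = 0.0135). TNFAIP3, an inhibitor of NF-kB, had -1.34 ± 0.32 (adjusted p = 0.0971, and 0.0111 with the block), and the chemokine CXCL8 had 1.73 ± 0.49 (0.145, and 0.0242 with the block). The NF-kB list thus held differences in both directions.

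ETV1, an ETS factor downstream of MAPK signalling, was the called member among 21 MAPK feedback and immediate early genes. It had 6.92 and 6.61 with LY2784544, against 5.18 and 5.40 with GRN163L, a difference of 1.48 ± 0.19 (adjusted p = 0.0131). Its relatives ETV4 (0.81 ± 0.25, adjusted p = 0.175) and ETV5 (0.65 ± 0.27, adjusted p = 0.304) did not pass. SPRY1, a feedback inhibitor of the same pathway, had -1.08 ± 0.23 (adjusted p = 0.0717, and 0.0429 with the block), and FOSL1, an AP-1 subunit, 0.78 ± 0.31 (0.292, and 0.0433 with the block). The list median was 0.22, but it turned to -0.16 without the LY2784544 array of experiment 2 and to -0.07 without the GRN163L array of experiment 1, and was 0.48 and 0.49 without the other LY2784544 and GRN163L arrays. In the integrated stress response, which is driven by the factor ATF4, SLC6A9, a glycine transporter, was called among 28 genes. It had 9.63 and 9.49 with LY2784544, against 8.41 and 8.61 with GRN163L, a difference of 1.05 ± 0.16 (adjusted p = 0.0224). CHAC1, which breaks down glutathione, had 0.81 ± 0.18 (adjusted p = 0.0817, and 0.0452 with the block). The list median was 0.11 between the agents, near 0 without the LY2784544 or the GRN163L array of experiment 1 in turn (-0.02 and 0.005), and 0.56 with LY2784544 and 0.52 with GRN163L against the shared controls. Among 16 apoptosis regulators, BMF, a pro-death relative of BCL2, was the called one. It had 6.29 and 5.88 with LY2784544, against 4.75 and 4.78 with GRN163L, a difference of 1.32 ± 0.19 (adjusted p = 0.0184). Of 12 heat shock genes, 0 were called and 7 had an unadjusted p under 0.05. The chaperone DNAJB1 had 9.18 and 9.13 with LY2784544, against 10.98 and 11.09 with GRN163L. Its difference of -1.88 ± 0.39 did not pass (adjusted p = 0.0628, and 0.0258 with the block). Its controls lay as far apart as 10.78 and 9.32.

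Replication-dependent histone genes, which are transcribed in S phase, had higher means with LY2784544 in 43 of 43 tested, with a median of 0.40 and a range from 0.03 to 1.04. In experiment 1 this median was 0.14, and in experiment 2 it was 0.68. It was 0.24 without the GRN163L array of experiment 2. Only H3C3 was called. It had 7.08 and 7.23 with LY2784544, against 6.21 and 6.09 with GRN163L, a difference of 1.01 ± 0.17 (adjusted p = 0.0344). H4C4 had 8.68 and 9.15 with LY2784544, against 7.99 and 7.83 with GRN163L (1.01 ± 0.27, adjusted p = 0.129, and 0.0467 with the block). Histone genes are near-identical copies, so probe sets may share signal between members, and the 43 are not 43 independent measurements. H2BC12, which is outside the list and named after its values were seen, was called with a difference of 1.04. Against the shared controls the list median was -0.17 with LY2784544 and -0.61 with GRN163L. Genes of G2 and mitosis had lower means in 20 of 22, with a median of -0.38, which was -0.79 in experiment 1 and 0.01 in experiment 2. No member was called, and 1 had an unadjusted p under 0.05 in limma. NEK2, a centrosome kinase, had 7.09 and 8.12 with LY2784544, against 8.74 and 8.62 with GRN163L (difference -1.08 ± 0.37, adjusted p = 0.219). The lower LY2784544 array was that of experiment 1, and without it the list median turned to 0.17, while without that of experiment 2 it was -0.85.

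**Figure D3:**
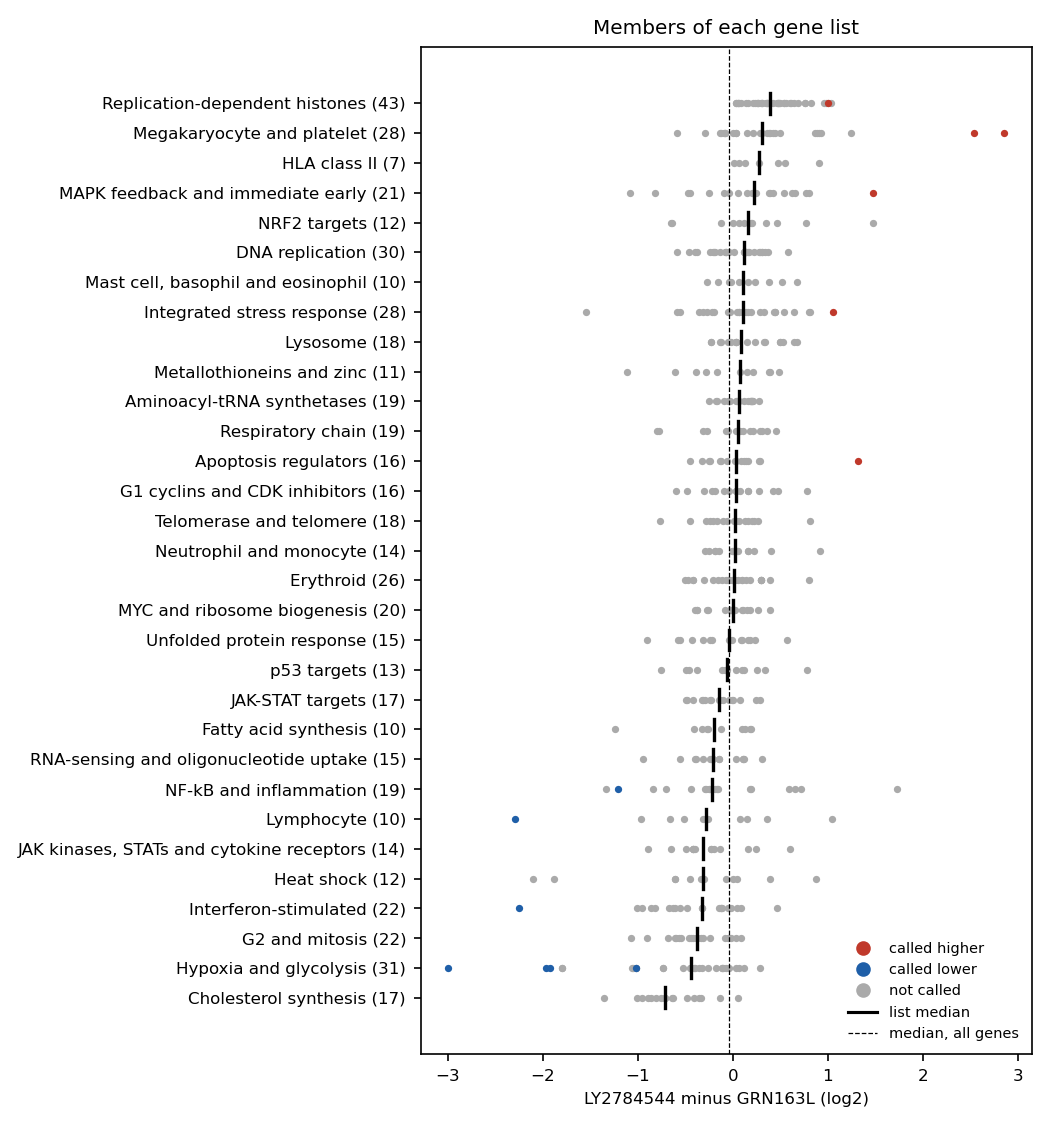
LY2784544 minus GRN163L (log2) for every tested member of the 31 gene lists, with the number of tested members in brackets. Red points were called higher, blue points called lower and grey points not called; the black bar is the list median and the dashed line the median of all tested genes at -0.04. Cholesterol synthesis has the lowest median, -0.71, with no member called, and the histone genes the highest, 0.40.

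**Figure D4:**
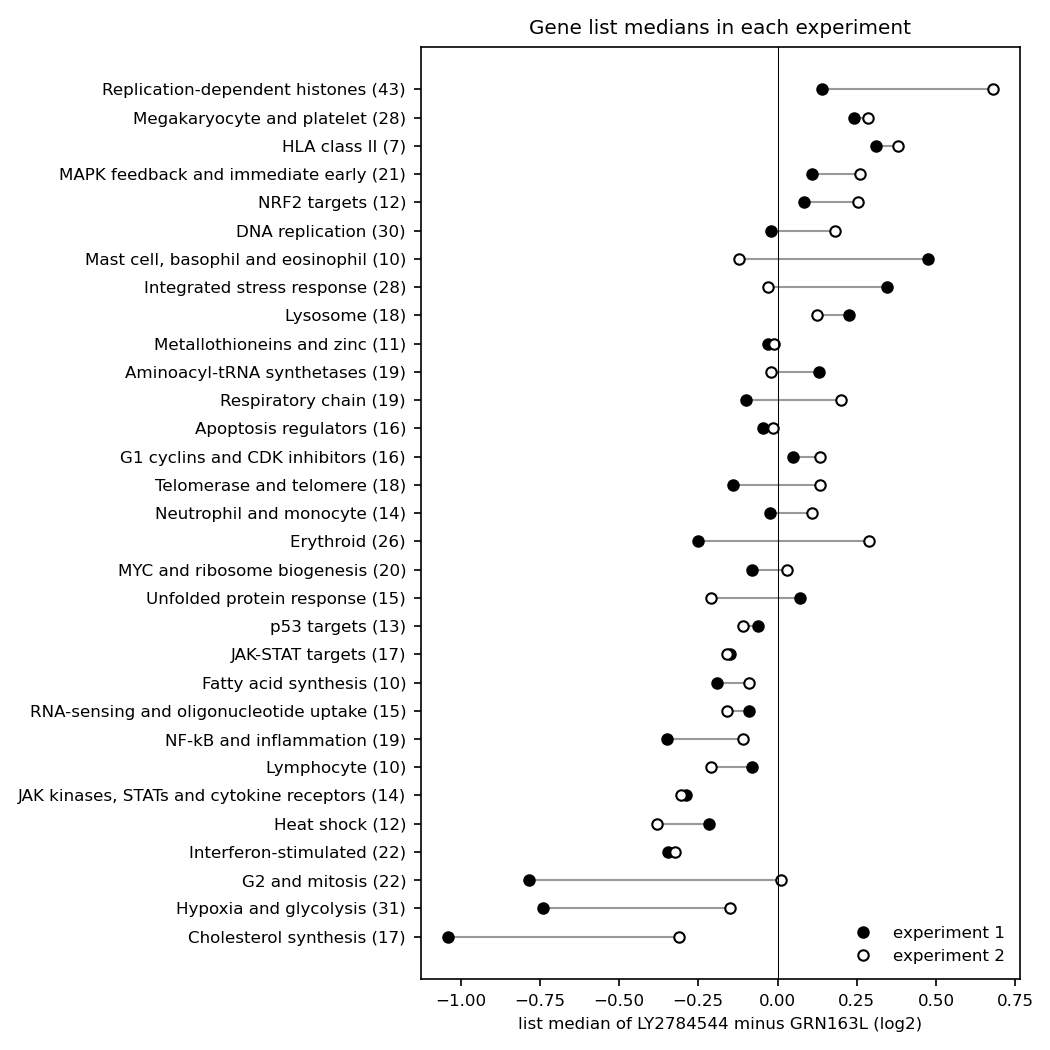
Median of LY2784544 minus GRN163L (log2) over the tested members of each gene list, in experiment 1 (filled) and experiment 2 (open). The interferon-stimulated genes have nearly the same median in both, -0.35 and -0.33, while the G2 and mitosis genes have -0.79 and 0.01.

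Megakaryocyte and platelet genes included the strongest called list members on the higher side. Of 28 tested, 21 had higher means with LY2784544, the median was 0.31, and PPBP and LYVE1 were called, although LYVE1 is best known from lymphatic endothelium. The other 7 had lower means, down to -0.585. The megakaryocyte markers ITGA2B, ITGB3, GP1BA and FLI1 overlapped between the agents. ITGB3 had 11.63 and 11.83 with LY2784544, against 11.75 and 11.64 with GRN163L. PPBP, a chemokine stored in platelet granules, had 8.42 and 8.48 with LY2784544, against 5.61 and 6.21 with GRN163L. The difference was 2.54 ± 0.23 (5.82-fold, adjusted p = 0.00389). PF4, the neighbouring platelet chemokine, had 7.05 and 7.53 with LY2784544, against 6.01 and 6.08 with GRN163L, a difference of 1.25 ± 0.27 that did not pass (adjusted p = 0.0732). MMRN1, a platelet adhesion protein, differed by 0.93 ± 0.18 (adjusted p = 0.0518) and CLEC1B, a platelet receptor, by 0.91 ± 0.17 (0.0533). With the block 7 members were called: PF4 (adjusted p = 0.0187), MMRN1 (0.0296), CLEC1B (0.0309), THBS1 (0.0330) and the collagen receptor GP6 (0.0339) joined PPBP and LYVE1. In the main limma fit the adjusted p was 0.156 for GP6 and 0.457 for THBS1. THBS1 overlapped between the agents, with 9.65 and 10.6 with LY2784544, against 8.79 and 9.74 with GRN163L. The 26 erythroid genes had a median of 0.01 and no call, with 1 at an unadjusted p under 0.05. UROS, an enzyme of haem synthesis, had 0.81 ± 0.16 (adjusted p = 0.0556, and 0.0330 with the block).

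The 7 HLA class II genes all had higher means with LY2784544, with a median of 0.28 and no call, and 2 had an unadjusted p under 0.05. HLA-DRA had 8.72 and 8.52 with LY2784544, against 7.45 and 7.97 with GRN163L (difference 0.91 ± 0.23, adjusted p = 0.102). Of 10 tested lymphocyte genes, PRF1 was called. Other lymphocyte surface genes, named after their values were seen, were called in both directions. CD6 and CD7 were lower, with differences of -1.32 and -1.36, while CD48 and SLAMF6 were higher, with 1.07 and 0.90. CD3D and CD3E, signalling subunits of the T cell receptor complex, had means under the filter level. The signals of CD3D were 4.19 and 4.62 with LY2784544, against 4.07 and 4.09 with GRN163L. The remaining lists held no call, with 0 to 5 members at an unadjusted p under 0.05. Their medians ran from -0.21 for RNA sensing and oligonucleotide uptake (15 genes) to 0.16 for the targets of NRF2, the oxidative stress factor (12 genes).

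The combination arrays show where both agents together fell on the line between the single agents. They take no part in the difference itself, only in the estimate of spread. For the 29 genes higher with LY2784544, the combination lay nearer the GRN163L mean in 21 and nearer the LY2784544 mean in 8. For the 103 lower genes it lay nearer LY2784544 in 65 and nearer GRN163L in 38. On a scale with GRN163L at 0 and LY2784544 at 1, the median position was 0.22 for the higher genes and 0.62 for the lower ones. The GRN163L mean was itself within 0.5 of control in 23 of the 29 and 81 of the 103. A position near GRN163L was thus often also one near control. Against the shared controls, the higher genes had medians of 1.31 with LY2784544, -0.075 with GRN163L and 0.185 with the combination. For the lower genes these were -1.185, 0.145 and -0.65. These positions are a description, as the contrast between the classes was not tested. CD34 had 5.89 and 6.73 with the combination, close to its GRN163L signals, and JUP had 9.24 and 9.10. The JUP controls were at a similar level, 9.26 and 8.95, while the CD34 controls were higher, at 7.41 and 7.13. LYVE1, at 7.16 and 7.74, and ERO1A, at 6.08 and 6.61, were close to their LY2784544 signals. BNIP3 had 8.58 and 9.49 with the combination, between the agents, and SEPTIN10 had 5.42 and 5.64.

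The combination minus the midpoint of the single agents was tested as a contrast of its own, which is orthogonal to their difference but uses the same arrays and the same spread. It was called in 36 of 12570 genes (0.286%), 3 higher (0.0239%) and 33 lower (0.263%). Of the 132 genes, 10 were called in it. PPBP, at 8.97 and 9.16 with the combination, was above both agents and 1.89 ± 0.20 above their midpoint (adjusted p = 0.0105). VGLL3, a transcription cofactor (7.28 and 7.46), and the non-coding LINC03030 (6.60 and 6.68) were 0.92 and 0.99 above it, near or beyond their GRN163L signals. ETV1 had 4.32 and 4.58 with the combination, below every array of either agent, and lay off the midpoint by -1.58 (adjusted p = 0.0104). GSDME, a pore-forming protein of lytic death, had 4.14 and 4.38 with the combination, against 5.70 and 5.19 with LY2784544 and 6.95 and 6.56 with GRN163L. It was lower with both agents than with either, by -1.84 from the midpoint (adjusted p = 0.0104). IFI30, a lysosomal thiol reductase, had 4.89 and 5.16 with the combination, -1.67 from the midpoint (adjusted p = 0.00715). SLC37A2, UCA1, STAC and DOK4 were the other called ones, at -1.56, -1.11, -0.99 and -1.17. The genes farthest from the midpoint were not among the 132. PRG2, an eosinophil granule protein, had 6.81 and 7.12 with the combination, against 10.06 and 9.44 with LY2784544 and 9.41 and 9.63 with GRN163L. Its single-agent arms overlapped (difference 0.23, adjusted p = 0.686), while the combination was -2.67 from their midpoint (adjusted p = 0.00495). The receptor KIT (-2.46), ETV4 (-2.40) and SOCS3 (-1.68) were likewise called off the midpoint and not between the agents. The number of midpoint calls was 2 without the GRN163L array of experiment 1, 7 without that of experiment 2, 2 without the combination array of experiment 1, 20 without the LY2784544 array of experiment 1 and 12 without either control array, and 134 with the block. Deviations of same-experiment arrays from their group means correlated across genes at 0.67 for LY2784544 with the combination and at 0.26 for LY2784544 with GRN163L, over the 12570 genes.

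**Figure D5:**
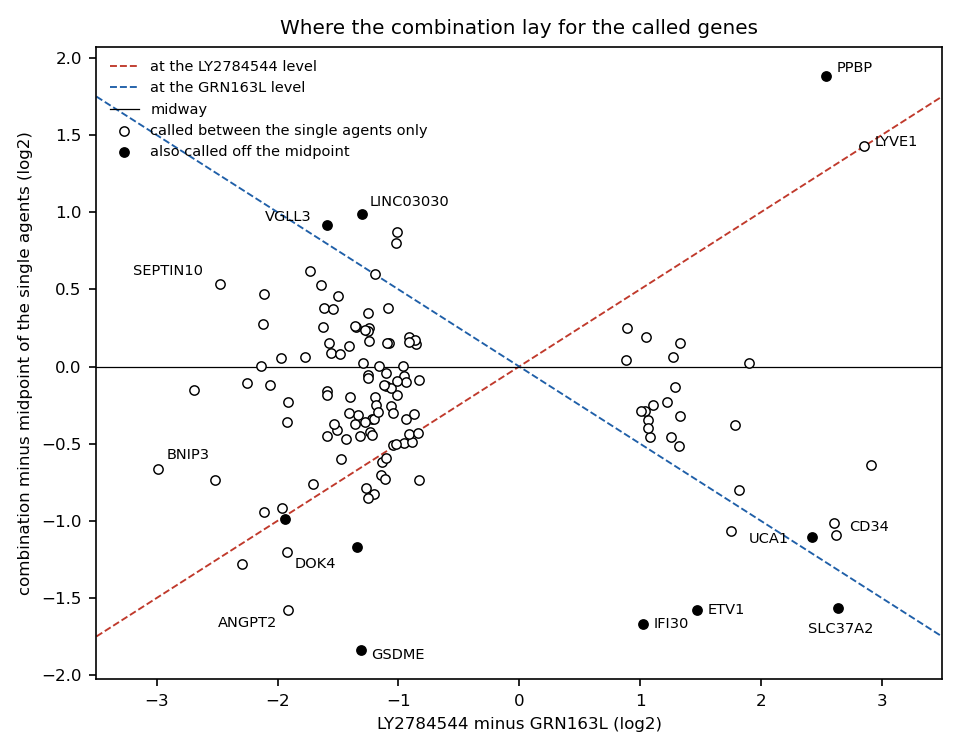
Combination minus the midpoint of the single agents (log2, vertical) against LY2784544 minus GRN163L (log2, horizontal) for the 132 called genes. The red dashed line is the LY2784544 level, the blue dashed line the GRN163L level and the black line midway; the 10 filled points were also called off the midpoint. PPBP is farthest above the midpoint, 1.89, and GSDME farthest below, -1.84.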

How the data were processed

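Total RNA from HEL cells was measured on 8 Affymetrix arrays, 2 in each of 4 groups. The deposited values are log2 signals made by the authors with RMA in Affymetrix Expression Console, per the submitters' processing notes. The sources used here give neither the program's version nor the genome build of the probe sets. RMA draws the arrays toward one distribution of signals and compresses differences of dim probe sets. Of 33297 probe sets, 19181 name exactly 1 gene in the platform annotation, 2055 name several and 12061 are in no row. The 1-gene probe sets cover 17958 genes. The probe set with the highest mean stood for a gene, and genes under the 30th percentile of means (4.37) were left out, leaving 12570.

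Group means were estimated in limma 3.58.1 (R 4.3.3) from the 8 arrays together, with empirical Bayes moderation. LY2784544 minus GRN163L was tested over all genes and called at a Benjamini-Hochberg adjusted p under 0.05. The number of arrays limits the precision: residual degrees of freedom were 4, and moderation added 4.65. The procedure was tested on simulated data with independent noise on every array. The simulation held no effect shared by the arrays of an experiment, so it cannot show how such an effect bears on the calls. Replicate numbers pair the arrays, since the labels name the first and second experiment, and every correlation of same-experiment deviations was over 0.1. The main fit has no block.

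Named genes are the 12 largest called differences in each direction, called members of the 31 gene lists, otherwise up to 4 members of a list with the smallest p, and JAK2 and TERT. The members and lists were chosen with earlier results of these data known. Any gene outside this rule is marked as chosen after its values were seen, with some exceptions. These are list members named where the block changed their call, cell type markers and the genes under other observations. Genes named for their result in the midpoint contrast, such as GSDME and IFI30, were also chosen after their values were seen. Promoter sequences come from RefSeq (GRCh38.p14). Alternatives tried were the block, other filters, normalizations and moderation, the 4 single-agent arrays alone, and leaving out each array.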

Additional observations from a re-analysis of the deposited data

How the results depend on the processing

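All 132 called genes kept their sign in each setting that tested them, but most settings could not change it. Their arrays did not overlap between the agents, so leaving out an array could not reverse a sign. The filters, the block and the other fits do not change the difference itself. A sign could change only under the normalizations or the mean of probe sets. With the replicate block, 441 genes were called (111 higher, 330 lower), and 134 for the combination against the midpoint; the block removed no call. With the filter at the 50th percentile 61 were called (13 higher, 48 lower). A fit on the 4 single-agent arrays only gave 190 genes (51 higher, 139 lower), among them 109 of the 132, and with the block as well 0 genes (0 higher, 0 lower), with 2345 at an unadjusted p under 0.05 in limma. Median normalization gave 121 (52 higher, 69 lower), quantile normalization 126 (48 higher, 78 lower) and array weights 195 (44 higher, 151 lower). Totals under the other settings (no filter, mean of probe sets, trend, robust moderation, a minimum of 2-fold) lay between 115 and 144. Without leaving out an array, gene list medians moved by more than their SD between the experiments in 45 combinations of list and setting and by less in 327. The block, the other fits, the array weights and the 2-fold minimum left every list median as it was. Many of the 327 were therefore fixed in advance. All 45 came from the filters, the normalizations and the mean of probe sets. Leaving out each array in turn gave 0 to 211 called genes, 0 to 60 higher and 0 to 151 lower, and 2 to 39 for the midpoint contrast; the group with 1 array left is then assumed to vary like the others. The uncalled difference of PRG2 ranged from -0.08, reversed, without LY2784544 replicate 1 to 0.54 without replicate 2. That of TERT ranged from -0.015, reversed, without GRN163L replicate 2 to 0.455 without replicate 1; the cause was not tested. With 2 arrays a group and many called genes dim in one arm, the size of large differences is limited by signal over background.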

Other observations

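Probe sets outside the gene table also differed between the single agents. In a fit over every probe set of the table, 1 higher and 1 lower of the 2055 that name several genes were called (0.0973%), and 2 higher and 7 lower of the 12061 in no row of the annotation (0.0746%). Of the 19181 single-gene probe sets, 16 higher and 30 lower were called in the same fit (0.240%). The probe set shared by FER1L6 and FER1L6-AS2 had 6.96 and 7.36 with LY2784544, against 4.24 and 4.43 with GRN163L, a difference of 2.83 ± 0.31 (limma adjusted p = 0.0436). It would be among the larger differences upward, but the gene behind it cannot be told apart from its antisense partner here. The probe set shared by the sterol and steroid enzyme gene HSD17B7 and its pseudogene HSD17B7P2 had 6.64 and 6.68 with LY2784544, against 7.86 and 7.61 with GRN163L (difference -1.08 ± 0.13, adjusted p = 0.0490). A separate probe set named for HSD17B7P2 alone was among the 103 lower genes, with a difference of -1.29, and the copies may share signal.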
